A study of Saccharomyces cerevisiae with 16 samples.

Results

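The autophagy genes of Saccharomyces cerevisiae with an ATG symbol were followed in their RNA, in their ribosome footprints and in their translation efficiency (TE). A gene was taken as a member when the symbol in the deposited count table was ATG and a number, which gave 35 of the 6692 genes listed. Genes of the same pathway that the table lists under another symbol, such as VPS30, are not members and are given as further lists at the end. Each of 8 cultures, 2 in each of 4 groups, gave an RNAseq library and a Riboseq library (sequencing of the mRNA stretches that ribosomes protect) from a shared extract, 16 libraries in all. The groups are WT cells in synthetic dextrose (SD) medium without urea (WS), WT cells in SD with 3% urea (WU), Δntd cells in SD without urea (NS) and Δntd cells in SD with 3% urea (NU). All 4 groups, the WT controls included, lack TIF3, the gene of the translation initiation factor eIF4B, on the chromosome, and carry a single-copy plasmid that restores prototrophy and holds a His-tagged copy of TIF3 (WT) or of the allele without the N-terminal domain (Δntd), each under the native promoter. The labels give the WT strain as BY4741. The SD medium held glucose and ammonium sulfate, each strain is a single construct, and where the replicate cultures came from is not given beyond their numbers, so p-values measure the spread between these cultures only.

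Autophagy carries cytoplasm, organelles and selected proteins to the vacuole in vesicles with a double membrane. The Atg1 kinase complex starts it when the TORC1 kinase is inactive, Atg9 vesicles and lipid transfer by Atg2 build the membrane, and a lipid kinase marks it. The ubiquitin-like protein Atg8 is then joined to the membrane lipid by enzymes related to the ubiquitin cascade, and receptors link cargo to Atg8. In growing yeast most of this machinery is kept at a low level, and a selective branch, the cytoplasm-to-vacuole targeting (Cvt) pathway, brings hydrolases to the vacuole.

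Depth was 1888481 to 5169546 counts in the RNAseq libraries (median 2844506) and 3067506 to 17380262 in the Riboseq libraries (median 9867858). The members together took 0.118 to 0.175% of the RNA counts and 0.0562 to 0.0932% of the footprints. The replicates of the NU group lay further apart in Riboseq than those of the other groups: the SD of the log2 difference between the replicates over 5251 genes was 0.51 in NU, against 0.16 in WS, 0.27 in WU and 0.16 in NS. Where leaving out an NU culture moves a count of called members in footprints or TE by over 1.5 times, this is therefore stated. For counts from fits with fewer cultures or other settings, the share of all genes called was not taken. Such counts are therefore not a result about the members alone. TIF3 was at 2169 to 3288 CPM (counts scaled to a fixed library size) in RNA and 2411 to 3140 CPM in footprints of WT cells, and at 1950 to 2537 and 2850 to 5210 CPM in Δntd cells, which checks that the gene is expressed but cannot show the deletion from counts per gene. Libraries were scaled with TMM factors (edgeR), and changes are log2 changes from edgeR's quasi-likelihood test. The test gives no SE, so the SE was worked back as the size of the change over the square root of its F statistic. It is approximate. A change is called when its p-value, adjusted by the Benjamini-Hochberg method over all genes tested, is under 0.05. All 35 members passed the filter on low counts in every assay.

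In WT cells without urea, most members were low in RNA and in translation. The median over members was 21.8 CPM per kilobase (kb) of coding sequence, against 45.0 over all genes, and 6 of 35 lay above that median. ATG42, which encodes a vacuolar carboxypeptidase, was highest at 168 CPM per kb, followed by ATG27 (104 CPM per kb), whose product travels with Atg9. ATG10, the gene of the enzyme that joins Atg12 to Atg5, was lowest at 4.82 CPM per kb, with 9 and 6 RNA counts in the cultures. The TE, taken as footprint CPM over RNA CPM, had a median of 0.431 over members and 0.587 over all genes, and 9 of 35 members were above the latter. ATG41 (1.82), ATG33 (1.78) and ATG8 (1.46) had the highest TE, and ATG26 (0.183) and ATG14 (0.228) the lowest. The 3 highest are among the shorter members, with coding lengths of 411 bases in ATG41, 594 in ATG33 and 354 in ATG8. Other short members lay on either side of the median of all genes. Above it were, among others, ATG31 (591 bases, TE 0.640), ATG40 (771 bases, TE 0.698), ATG27 (816 bases, TE 0.852) and ATG3 (933 bases, TE 0.650). Below it were, among others, ATG12 (561 bases, TE 0.264), ATG16 (453 bases, TE 0.412) and ATG10 (504 bases, TE 0.431). A link of TE with coding length was not tested. The order near the top was not stable across cultures: the TE of ATG41 was 1.59 and 2.06 and that of ATG33 was 1.58 and 1.99 in the WS cultures.

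**Figure D1:**
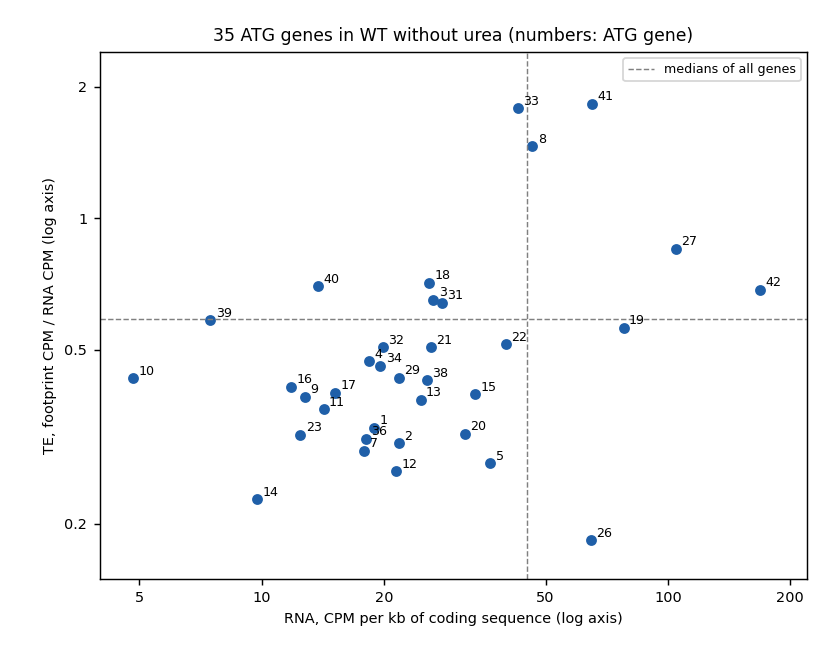
RNA level (CPM per kb of coding sequence, horizontal log axis) and TE (footprint CPM divided by RNA CPM, vertical log axis) of the 35 ATG genes in WT cells without urea, each point the mean of 2 cultures and marked with the number of the ATG gene, with dashed lines at the medians of all genes (45.0 CPM per kb and a TE of 0.587). Most members lie to the left of and below both lines, with ATG41, ATG33 and ATG8 at the top and ATG26 at the bottom right.

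The first comparison asked what 3% urea did to these genes in WT cells (WU against WS). RNA of 11 members fell and RNA of 1 rose, which is 12 of 35 beside 28.5% of all 5486 genes tested (16.1% higher and 12.4% lower). The fallers were ATG8 and ATG7 of the Atg8 branch, ATG9 and ATG2 of the membrane supply, and the sorting nexin gene ATG20. The others were the receptor genes ATG19, ATG32 and ATG34, the cargo-selective factor gene ATG33, and ATG22 and ATG42 of the vacuole. The median change over members was -0.36, against 0.00 over all genes. Most values moved the same way whether called or not: 28 of 35 changes were below 0, beside 2718 of all 5486 genes tested. In 24 members both WU cultures were under both WS cultures. This count was not made over all genes, so it is not a result about the members alone.

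**Figure D2:**
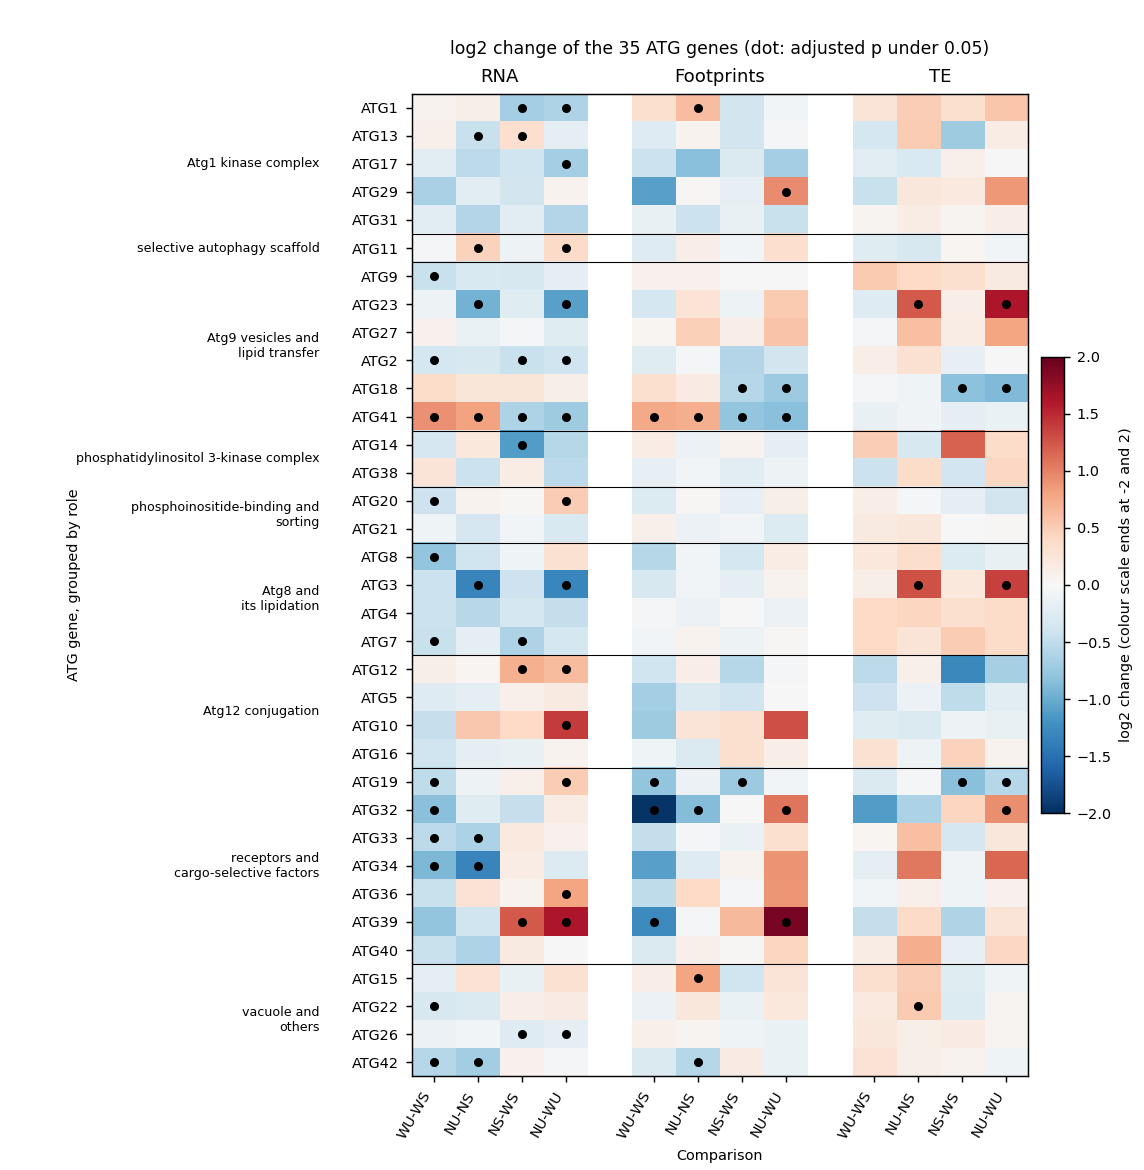
The log2 changes of the 35 ATG genes, in rows grouped by role, in RNA, footprints and TE (columns) for urea in WT (WU-WS), urea in Δntd (NU-NS), Δntd against WT without urea (NS-WS) and with urea (NU-WU). Red is higher and blue is lower in the first-named group, and a dot marks an adjusted p under 0.05: the left column of RNA holds 11 blue dots and 1 red dot, and TE holds 10 dots over its 4 columns.

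The cargo receptors and cargo-selective factors, the largest group by role, had the most falls in RNA. All 7 had a change below 0 in WU-WS, with a median of -0.52. Of these, 4 were called, beside 12.4% of all genes called lower. All 4 members were also below 0 in the group of Atg8 and its lipidation and in the vacuole group, with 2 called in each. ATG32, the mitophagy receptor of the mitochondrial outer membrane, had 31.8 and 31.3 CPM of RNA in the WS cultures and 18.2 and 17.2 in the WU cultures. Its footprints went from 14.5 and 17.5 CPM to 3.51 and 4.95 CPM. The WS and WU cultures did not overlap in either assay, and the footprint change was the largest called change of any member in the study. RNA fell by 0.84 ± 0.18 (log2 change ± SE, adjusted p = 0.000526) and footprints by 1.96 ± 0.22 (adjusted p = 0.00178), and both calls held when each culture was left out and under each other alternative. ATG34 encodes a receptor of the Cvt cargo Ams1 and lies beside ATG19 on chromosome XV. Its RNA was 22.6 and 26.0 CPM in WS and 10.4 and 14.9 CPM in WU, again without overlap, and fell by 0.89 ± 0.22 (adjusted p = 0.00194). ATG19, the receptor of the Cvt cargo Ape1, had 91.9 and 102 CPM in WS and 69.1 and 67.1 CPM in WU. Its RNA fell by 0.51 ± 0.10 (adjusted p = 0.0002), and its footprints, at 55.5 and 52.9 CPM in WS and 28.7 and 34.3 CPM in WU, fell by 0.80 ± 0.14 (adjusted p = 0.0131). The receptor genes for the perinuclear endoplasmic reticulum (ATG39), its cortical part (ATG40) and peroxisomes (ATG36) had RNA changes of -0.80, -0.44 and -0.44 that did not pass the test. In footprints ATG39 was at 4.69 and 5.81 CPM in WS and 2.06 and 2.31 CPM in WU and fell by 1.27 ± 0.29 (adjusted p = 0.0316). The RNA calls of ATG34 and ATG19 held without each culture. The footprint calls of ATG19 and ATG39 were lost without any one WS or WU culture (adjusted p up to 0.154 for ATG19 and 0.259 for ATG39), and that of ATG39 also without either NS culture (adjusted p = 0.0706 and 0.0703).

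ATG41 was the member that went the other way. Its product binds Atg9 and helps it reach the site where the membrane forms. RNA of ATG41 was 30.2 and 23.3 CPM in the WS cultures and 47.9 and 52.4 CPM in the WU cultures, and footprints were 47.9 and 48.1 CPM against 84.6 and 77.8 CPM. Both assays were higher in each WU culture than in each WS culture. The RNA rose by 0.91 ± 0.15 (adjusted p = 2.36e-05), held without each culture, and the footprints rose by 0.76 ± 0.11 (adjusted p = 0.00551), a call lost without WS replicate 1, WS replicate 2 or WU replicate 1 (adjusted p up to 0.0815). Its TE change was -0.15.

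Among the core genes, ATG8 RNA was 17.5 and 15.3 CPM in WS and 10.1 and 9.04 CPM in WU, a fall of 0.79 ± 0.25 (adjusted p = 0.016). This call was lost without WS replicate 1 or WU replicate 2 (adjusted p = 0.132 and 0.135). ATG9, the transmembrane protein of the Atg9 vesicles, went from 39.4 and 37.0 CPM to 26.6 and 29.1 CPM, a fall of 0.45 ± 0.16 (adjusted p = 0.0348). ATG7, the activating enzyme of the conjugation cascades, went from 33.1 and 34.7 CPM to 24.3 and 25.1 CPM, a fall of 0.45 ± 0.17 (adjusted p = 0.0391). Both were lower in each WU culture, and both calls were lost without any one WS or WU culture (adjusted p up to 0.182 for ATG9 and 0.166 for ATG7). ATG42 RNA was 252 and 262 CPM in WS and 177 and 169 CPM in WU. It fell by 0.57 ± 0.07 (adjusted p = 1.59e-07), a call that held in every alternative. ATG22, which encodes a vacuolar exporter of amino acids, went from 63.0 and 64.0 CPM to 52.2 and 50.1 CPM, a fall of 0.31 ± 0.11 (adjusted p = 0.0388) that was lost without any one WS or WU culture (adjusted p up to 0.215). None of the 5 genes of the Atg1 kinase complex passed the test: ATG1 RNA was 54.4 and 47.3 CPM in WS and 51.9 and 54.2 CPM in WU, and ATG13 RNA 52.2 and 57.0 against 56.6 and 59.6 CPM, with changes of 0.06 and 0.10. The count of 12 called members in RNA became 7 without WS replicate 1 or WU replicate 1, 6 without WS replicate 2 or WU replicate 2, and 5 with DESeq2's Wald test.

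**Figure D3:**
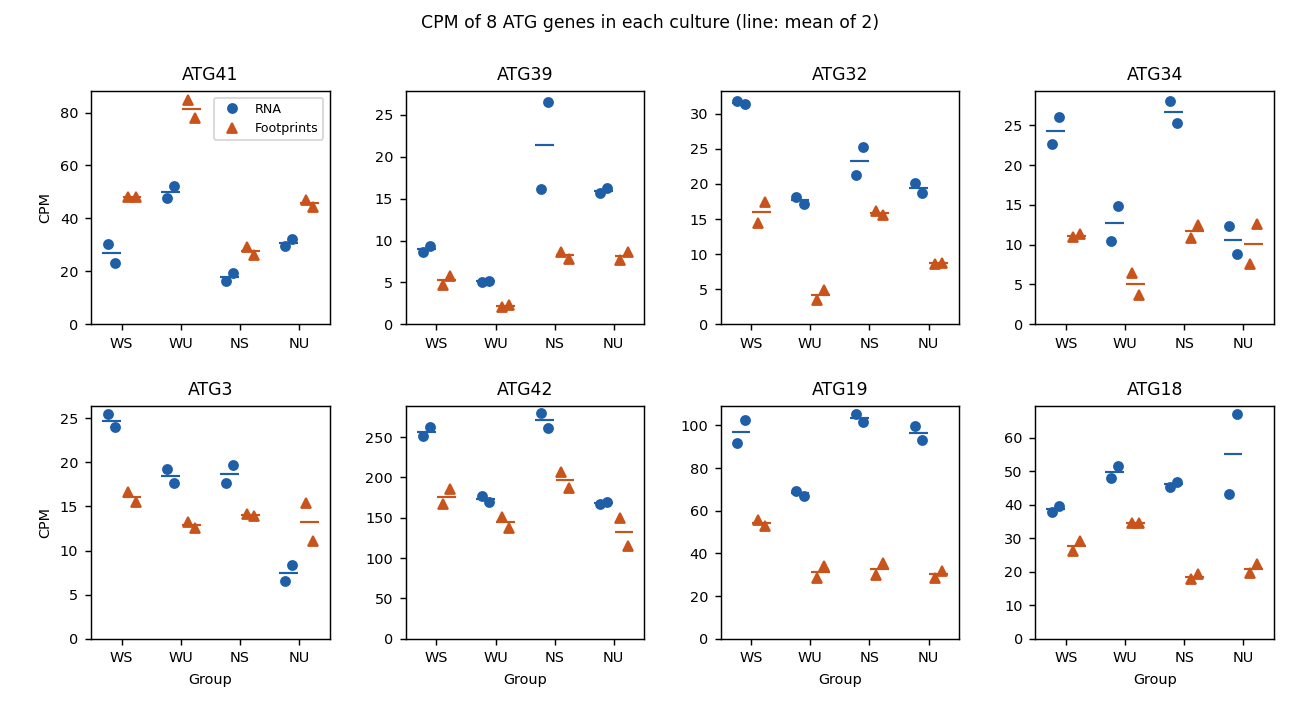
RNA (blue circles) and footprints (orange triangles) in CPM on the vertical axis for 8 ATG genes in each of the 2 cultures of WS, WU, NS and NU, with a short line at the mean. ATG41 is higher with urea in both strains (48.1 CPM of footprints or less in WS, 77.8 CPM or more in WU), footprints of ATG32 are lowest in WU (3.51 and 4.95 CPM), and RNA but not footprints of ATG3 is lowest in NU (6.58 and 8.38 CPM of RNA).

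In footprints, 4 members were called in WU-WS (ATG41 higher, and ATG19, ATG32 and ATG39 lower), beside 9.21% of all 5286 genes tested (4.73% higher and 4.48% lower). The median change was -0.26 over members and -0.01 over all genes. Below 0 were 26 of 35 members, beside 2713 of all 5286 genes. All 7 members of the group of receptors and cargo-selective factors were below 0 in footprints as well. The count moved with the cultures fitted: it was 11 (2 higher, 9 lower) with the WS and WU cultures alone. It also rose without either NU culture, and it dropped without any one WS or WU culture. The cause of these moves was not tested. The 11 genes were the 4 named, ATG18 at the higher side, and ATG5, ATG8, ATG29, ATG33, ATG34 and ATG42 at the lower side. Without NU replicate 1 the footprint change of ATG8 was -0.58 (adjusted p = 0.00365) and that of ATG34 was -1.06 (adjusted p = 0.000876), close to their values over all cultures of -0.57 and -1.08. ATG10 had 2 and 3 footprints in the WU cultures, which is within the floor of 3 counts, against 22 and 14 in WS, 17 and 15 in NS and 11 and 12 in NU, so no fold is given for it there. The median over members was the same with ATG10 set at that floor.

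No member changed in TE with urea in WT cells (0 of 35, beside 0.133% of 5251 genes, 0.114% higher and 0.019% lower). At an unadjusted p under 0.05 edgeR gave 1 of 35 members, beside 533 of all 5251 genes. DESeq2 called 0 members. ATG32 had the lowest TE value of the comparison. Its TE was 0.456 and 0.558 in WS and 0.193 and 0.288 in WU, and the change of -1.12 did not pass the test (adjusted p = 0.138 in edgeR's test). Without either NU culture it did (-1.10, adjusted p = 0.0282), and so it did with the WS and WU cultures alone (adjusted p = 0.0313).

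The promoters of the members were read for short motifs of factors known to act on nitrogen and stress genes, as a description of sequence. The 250 bases before each start codon (RefSeq annotation of the R64 genome) were searched on both strands for 4 short motifs. GATAAG, the core bound by GATA factors such as Gln3 and Gat1, was in 10 of 35 members (28.6%) and in 12.6% of 5987 promoters. GGCGGC, the core of the URS1 element bound by Ume6, was in 3 members (8.57%, against 4.18%), TGACTC, the core of Gcn4 sites, in 5 (14.3%, against 6.26%), and AGGGG, the core of the stress response element of Msn2 and Msn4, in 8 (22.9%, against 18.8%). Among the 11 members whose RNA fell in WU-WS, 5 held GATAAG (5 of the other 24), 3 held GGCGGC (0 of the other 24), 6 held AGGGG (2 of the other 24) and 2 held TGACTC (3 of the other 24). No motif was thus shared by all the fallers, and ATG2, ATG7 and ATG22 held none of the 4. No match of a motif overlapped a match of another motif. Matches of GGCGGC in ATG8 overlap each other. Stretches of 30 bases around matches of the fallers with the changes described above are given here, read on the gene's strand, with the motif (or its reverse complement) in capitals.
ATG8, GATA core, chrII:80774-80803, minus strand: gaggaggggattGATAAGagaatctaataa
ATG8, URS1 core, chrII:80844-80873, minus strand: gttattttcggcGGCGGCaaaaatatttgg
ATG9, GATA core, chrIV:184857-184886, plus strand: gtatctcactttGATAAGaagacatttaag
ATG19, GATA core, chrXV:168628-168657, plus strand: tgatatgagtttGATAAGgtgtatcagacg
ATG19, URS1 core, chrXV:168672-168701, plus strand: cgaggtaattgcGGCGGCacttgcttcagt
ATG32, GATA core, chrIX:75818-75847, minus strand: acttctcttatcGATAAGcaatattgaagt
ATG42, URS1 core, chrII:515511-515540, plus strand: aaaaatggccgaGGCGGCgctagcattcta
ATG34, stress response element core, chrXV:165515-165544, plus strand: atggcacacgcaCCCCTaaagtaggtgggg
In the ATG32 promoter the match shown directly follows another, in reverse, and a further match lies 25 bases upstream of it. ATG41, which rose, held none of the 4 motifs in this window.

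The second comparison asked the same of Δntd cells (NU against NS). RNA of 6 members fell (ATG3, ATG13, ATG23, ATG33, ATG34 and ATG42) and RNA of 2 rose (ATG11 and ATG41), which is 8 of 35 beside 26.2% of all genes (13.4% higher and 12.8% lower). The median change was -0.24, and 25 of 35 changes were below 0, beside 2759 of all 5486 genes. The WT and Δntd comparisons share no library, and 3 of the 11 falls in WT were among the 6 in Δntd (ATG33, ATG34 and ATG42), as was the rise of ATG41. Across the 35 members the RNA changes of the strains had a Pearson's r of 0.47 and a Spearman's rho of 0.34, given as a description.

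ATG3 showed the largest RNA fall. It encodes the conjugating enzyme that hands Atg8 to its lipid. Its RNA was 17.6 and 19.7 CPM in the NS cultures and 6.58 and 8.38 CPM in the NU cultures, with 16 and 17 counts in the latter. Its footprints, at 14.1 and 13.9 CPM in NS and 15.4 and 11.1 CPM in NU, overlapped. The RNA fell by 1.32 ± 0.29 (adjusted p = 0.000636), a call that held in every alternative. ATG34 RNA was 28.04 and 25.2 CPM in NS and 12.3 and 8.87 CPM in NU and fell by 1.31 ± 0.26 (adjusted p = 0.000199), which also held throughout. ATG23, which takes part in Atg9 vesicle formation, went from 13.7 and 15.1 CPM to 6.58 and 8.38 CPM, a fall of 0.95 ± 0.31 (adjusted p = 0.0224) that was lost without NS replicate 1, NS replicate 2 or NU replicate 1 (adjusted p up to 0.185). ATG42 RNA was 280 and 261 CPM in NS and 167 and 169 CPM in NU and fell by 0.69 ± 0.08 (adjusted p = 3.85e-08), again in every alternative. ATG13, the regulatory subunit of the Atg1 kinase that TORC1 phosphorylates, had 71.2 and 66.5 CPM in NS and 51.4 and 50.3 CPM in NU. It fell by 0.44 ± 0.13 (adjusted p = 0.0119), lost without NS replicate 1, NU replicate 1 or NU replicate 2 (adjusted p up to 0.11).

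The rises were smaller in number. ATG41 RNA was 16.2 and 19.3 CPM in NS and 29.6 and 32.0 CPM in NU, and its footprints 29.2 and 26.1 against 47.1 and 44.3 CPM. The groups did not overlap in either assay. RNA rose by 0.81 ± 0.21 (adjusted p = 0.00391, lost without NS replicate 1 with an adjusted p of 0.0731) and footprints by 0.73 ± 0.11 (adjusted p = 0.00486, lost without NS replicate 2 with an adjusted p of 0.0658). ATG11, the scaffold that joins receptors to the Atg1 kinase in selective autophagy, had 47.5 and 46.3 CPM of RNA in NS and 66.6 and 62.1 CPM in NU, a rise of 0.46 ± 0.13 (adjusted p = 0.0103, lost without NU replicate 1 with an adjusted p of 0.0873). Its 2 NU cultures lay above all other cultures of the study. The count of 8 called members in RNA became 5 without NS replicate 1 or NU replicate 1 and 4 with DESeq2's Wald test.

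In footprints, 5 members were called in NU-NS, beside 28.4% of all genes (16.9% higher and 11.5% lower), with ATG1, ATG15 and ATG41 higher and ATG32 and ATG42 lower. ATG1, the kinase that starts autophagosome formation, had 13.2 and 13.0 CPM of footprints in NS and 21.7 and 18.1 CPM in NU, a rise of 0.62 ± 0.17 (adjusted p = 0.0339), while its RNA was 34.5 and 28.4 CPM in NS and 33.3 and 36.0 CPM in NU. ATG15, the vacuolar lipase that breaks down the delivered vesicles, had 16.8 and 14.8 CPM of footprints in NS and 27.1 and 27.2 CPM in NU, a rise of 0.79 ± 0.15 (adjusted p = 0.00834). ATG32 footprints went from 16.1 and 15.6 CPM to 8.57 and 8.76 CPM, a fall of 0.87 ± 0.18 (adjusted p = 0.0114), and ATG42 footprints from 207 and 187 CPM to 150 and 115 CPM, a fall of 0.57 ± 0.14 (adjusted p = 0.023). The calls of ATG1, ATG15, ATG32 and ATG42 were lost without either NS culture (adjusted p up to 0.165), that of ATG1 also without either WS culture (adjusted p = 0.0752 and 0.075). The count of members was 7 without NU replicate 1, 8 without NU replicate 2, 1 without NS replicate 1 and 0 without NS replicate 2 or with the NS and NU cultures alone. Scaling by library totals alone, which moved the median of all genes to -0.42, called 8 members, all lower, and ATG1 (0.19), ATG15 (0.35) and ATG41 (0.30) stayed above 0 under it without passing the test.

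In TE, 3 members rose in NU-NS and none fell, beside 11.6% of all genes (7.29% higher and 4.27% lower). They were ATG3, ATG22 and ATG23. The TE of ATG3 was 0.802 and 0.706 in NS and 2.35 and 1.33 in NU, that of ATG23 was 0.391 and 0.310 against 1.11 and 0.523, and that of ATG22 was 0.443 and 0.417 against 0.593 and 0.641. In ATG3 and ATG23 the RNA was lower in NU while the footprints overlapped between NS and NU. Each of these 2 genes had only 16 and 17 RNA counts in the NU cultures. The TE rose by 1.27 ± 0.30 in ATG3 (adjusted p = 0.0167), by 1.23 ± 0.38 in ATG23 (adjusted p = 0.0486) and by 0.52 ± 0.15 in ATG22 (adjusted p = 0.0361). The call of ATG3 was lost without NS replicate 1, NS replicate 2 or NU replicate 1 (adjusted p up to 0.139). That of ATG23 remained in 1 of 15 alternatives (without NU replicate 2, adjusted p = 0.0116), and that of ATG22 was lost without each culture other than NU replicate 1 (adjusted p up to 0.218). With library totals alone the median of all genes was -0.32 and no member was called higher (0 higher, 2 lower). The count of 3 became 1 without any one WS or WU culture, 0 without either NS culture and 0 with the NS and NU cultures alone.

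The third comparison set Δntd against WT cells without urea (NS against WS). RNA of 3 members was higher (ATG12, ATG13 and ATG39) and RNA of 6 was lower (ATG1, ATG2, ATG7, ATG14, ATG26 and ATG41), which is 9 of 35 beside 36.8% of all genes (17.5% higher and 19.3% lower). The median change was -0.09. With library totals alone, under which the median of all genes was 0.31, the split was 8 higher and 1 lower.

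ATG39 had the largest rise. Its RNA was 8.59 and 9.33 CPM in WS and 16.2 and 26.6 CPM in NS, without overlap, and rose by 1.22 ± 0.28 (adjusted p = 0.000689) in every alternative. ATG12, the ubiquitin-like partner of Atg5, had 11.8 and 12.3 CPM in WS and 19.1 and 20.6 CPM in NS. Its RNA rose by 0.71 ± 0.25 (adjusted p = 0.0252), lost without any one WS or NS culture (adjusted p up to 0.112), while its footprints were 3.38 and 2.97 CPM in WS and 2.86 and 1.56 CPM in NS. ATG13 RNA was 52.2 and 57.0 CPM in WS and 71.2 and 66.5 CPM in NS, a rise of 0.34 ± 0.12 (adjusted p = 0.0278) that was lost without WS replicate 1, NS replicate 1 or NS replicate 2 (adjusted p up to 0.182). On the lower side, ATG1 RNA was 54.4 and 47.3 CPM in WS and 34.5 and 28.4 CPM in NS, and fell by 0.68 ± 0.15 (adjusted p = 0.000601), a call that held in every alternative. ATG14, the subunit that directs the lipid kinase Vps34 to autophagy, went from 10.2 and 10.0 CPM to 3.95 and 5.50 CPM, or from 32 and 30 counts to 11 and 12. It fell by 1.11 ± 0.39 (adjusted p = 0.0261), lost without WS replicate 1, WS replicate 2 or NS replicate 1 (adjusted p up to 0.201). ATG7 went from 33.1 and 34.7 CPM to 20.5 and 23.8 CPM, a fall of 0.62 ± 0.18 (adjusted p = 0.00801, lost without NS replicate 1 with an adjusted p of 0.103). ATG41 fell by 0.61 ± 0.20 from 30.2 and 23.3 CPM to 16.2 and 19.3 CPM (adjusted p = 0.0176, lost without WS replicate 1 or NS replicate 1, adjusted p = 0.222 and 0.173). The 9 called members became 5 without WS replicate 1 or 2 and 3 without NS replicate 1 or with DESeq2's Wald test.

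Footprints of 3 members were lower in NS and none was higher, beside 9.21% of all genes (3.67% higher and 5.54% lower). ATG18, the phosphoinositide-binding partner of Atg2, had 26.1 and 29.2 CPM in WS and 17.7 and 19.3 CPM in NS. Its RNA, at 37.8 and 39.7 CPM in WS and 45.3 and 46.8 CPM in NS, was higher in each NS culture. Footprints fell by 0.57 ± 0.13 (adjusted p = 0.0312) and the TE, from 0.690 and 0.736 to 0.392 and 0.413, fell by 0.83 ± 0.23 (adjusted p = 0.0469). ATG19 footprints went from 55.5 and 52.9 CPM to 30.1 and 35.3 CPM, while its RNA overlapped between WS and NS (91.9 and 102 against 105 and 102 CPM). Its footprints fell by 0.73 ± 0.13 (adjusted p = 0.0166), and its TE, from 0.604 and 0.517 to 0.285 and 0.347, fell by 0.83 ± 0.16 (adjusted p = 0.0084). ATG41 footprints went from 47.9 and 48.1 CPM to 29.2 and 26.1 CPM, a fall of 0.80 ± 0.11 (adjusted p = 0.0061). ATG18 and ATG19 were the 2 members called in TE, beside 6.47% of all genes (3.1% higher and 3.37% lower).

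Every one of these footprint and TE calls was lost without any one WS or NS culture, and those of ATG18 also without either WU culture (adjusted p up to 0.256 for footprints and 0.338 for TE of ATG18, 0.193 and 0.154 for ATG19, and 0.119 for ATG41). Without NU replicate 1 or NU replicate 2 the counts went up instead, to 9 in footprints and 4 in TE, where ATG12 (-1.29, adjusted p = 0.00884 without NU replicate 1) and ATG13 (-0.69, adjusted p = 0.00483) joined ATG18 and ATG19 on the lower side. The TE of ATG12 was 0.287 and 0.241 in WS and 0.1502 and 0.0758 in NS, and that of ATG13 was 0.368 and 0.400 in WS and 0.189 and 0.283 in NS. Both were thus lower in each NS culture, with higher RNA and, over all cultures, no TE call.

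The fourth comparison set the strains side by side in urea (NU against WU). RNA of 7 members was higher (ATG10, ATG11, ATG12, ATG19, ATG20, ATG36 and ATG39) and RNA of 7 was lower (ATG1, ATG2, ATG3, ATG17, ATG23, ATG26 and ATG41), which is 14 of 35 beside 43.9% of all genes (21.5% higher and 22.5% lower). The median change was -0.04. With library totals alone, under which the median of all genes was 0.35, the split was 12 higher and 3 lower. Of the called members, ATG12 and ATG39 were higher and ATG1, ATG2, ATG26 and ATG41 lower in Δntd without urea as well, in other cultures.

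ATG39 again rose the most. Its RNA was 5.06 and 5.20 CPM in WU and 15.6 and 16.3 CPM in NU, and its footprints 2.06 and 2.31 against 7.71 and 8.58 CPM. RNA rose by 1.62 ± 0.32 (adjusted p = 0.000101) and footprints by 1.90 ± 0.29 (adjusted p = 0.00221), and both calls held in every alternative. ATG19 RNA was 69.1 and 67.1 CPM in WU and 99.9 and 93.2 CPM in NU, a rise of 0.51 ± 0.11 (adjusted p = 0.000258) that also held throughout. Its footprints overlapped, at 28.7 and 34.3 CPM in WU and 28.7 and 31.8 CPM in NU. ATG36 RNA was 11.5 and 11.97 CPM in WU and 14.8 and 26.6 CPM in NU, a rise of 0.79 ± 0.26 (adjusted p = 0.0152) that was lost without WU replicate 2 (adjusted p = 0.0537) or NU replicate 2 (adjusted p = 0.42), the higher NU culture. ATG10 RNA was 1.69 and 1.81 CPM in WU, or 5 and 8 counts, and 4.52 and 4.93 CPM in NU, or 11 and 10 counts. It rose by 1.40 ± 0.54 (adjusted p = 0.0338), lost without any one WU or NU culture (adjusted p up to 0.12).

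ATG11 RNA was 49.6 and 49.5 CPM in WU and 66.6 and 62.1 CPM in NU, a rise of 0.38 ± 0.12 (adjusted p = 0.0129, lost without WU replicate 2 or NU replicate 1, adjusted p = 0.0707 and 0.102). ATG12 RNA was 14.2 and 12.2 CPM in WU and 24.3 and 15.8 CPM in NU, a rise of 0.64 ± 0.24 (adjusted p = 0.0327, lost without WU replicate 2 or NU replicate 1, adjusted p = 0.195 and 0.536). The NU cultures were above the WU cultures in both genes. On the lower side, ATG3 fell by 1.30 ± 0.27 (adjusted p = 0.000217) from 19.2 and 17.6 CPM to 6.58 and 8.38 CPM, in every alternative. ATG23 fell by 1.09 ± 0.29 (adjusted p = 0.00252) from 16.2 and 15.6 CPM to 6.58 and 8.38 CPM, lost without NU replicate 1 (adjusted p = 0.0617). ATG41 RNA, at 47.9 and 52.4 CPM in WU and 29.6 and 32.0 CPM in NU, fell by 0.71 ± 0.16 (adjusted p = 0.000556), and its footprints, at 84.6 and 77.8 CPM against 47.1 and 44.3 CPM, fell by 0.83 ± 0.12 (adjusted p = 0.00156). Both calls of ATG41 held in every alternative. ATG1 RNA, at 51.9 and 54.2 CPM in WU and 33.3 and 36.0 CPM in NU, fell by 0.62 ± 0.15 (adjusted p = 0.000952), a call that held without each culture but not with library totals alone (-0.30, adjusted p = 0.0888). The count of 14 became 8 without WU replicate 2 and 7 with DESeq2's Wald test.

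**Figure D4:**
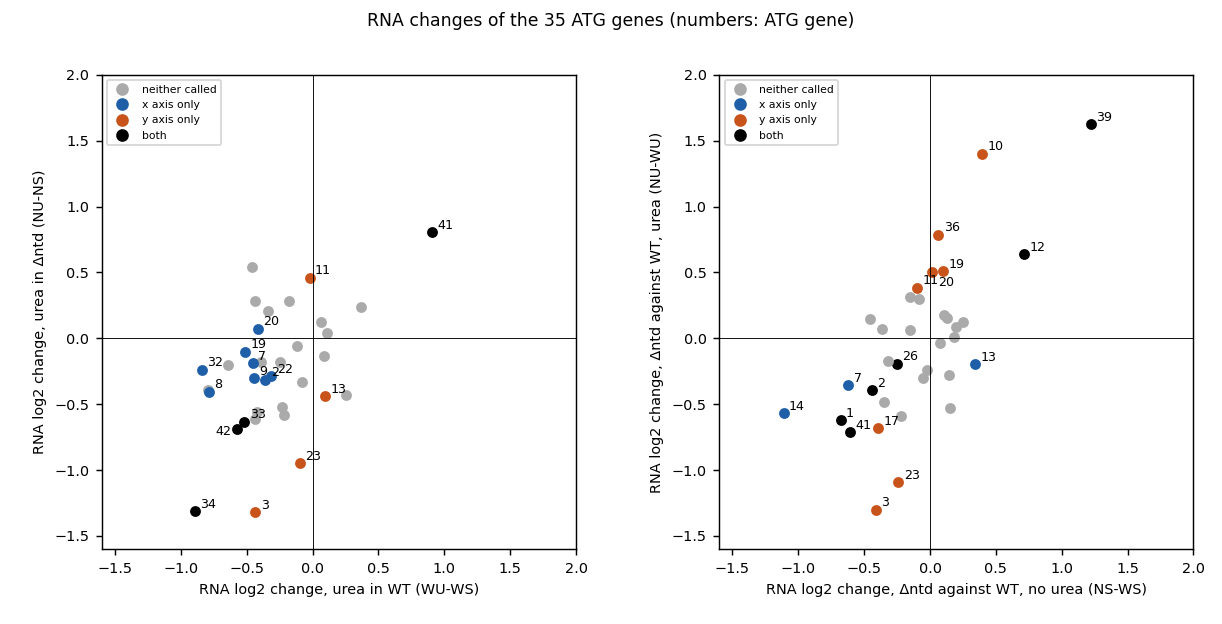
RNA log2 changes of the 35 ATG genes, with urea in WT on the horizontal and in Δntd on the vertical axis (left), and for Δntd against WT without urea on the horizontal and with urea on the vertical axis (right), in points coloured by which comparison was called, with the number of the ATG gene beside the called ones. In the left panel 22 genes lie below 0 in both strains and ATG41 stands alone at the upper right, and in the right panel ATG39 is at the upper right (1.22 and 1.62).

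In footprints, 5 members were called in NU-WU, beside 32.9% of all genes (17.9% higher and 15.1% lower), with ATG29, ATG32 and ATG39 higher and ATG18 and ATG41 lower. ATG32 had 3.51 and 4.95 CPM in WU and 8.57 and 8.76 CPM in NU, a rise of 1.08 ± 0.25 (adjusted p = 0.0134), lost without WU replicate 1 (adjusted p = 0.131). ATG29, a subunit of the Atg17 scaffold, had 2.68 and 2.97 CPM in WU and 6.11 and 4.38 CPM in NU, a rise of 0.94 ± 0.31 (adjusted p = 0.0493) that remained called only without NU replicate 2 (adjusted p = 0.0147). ATG18 had 34.7 and 34.6 CPM in WU and 19.5 and 22.4 CPM in NU, a fall of 0.73 ± 0.14 (adjusted p = 0.00627), lost without WU replicate 1 (adjusted p = 0.0503). The count was 10 without NU replicate 1 or 2, 2 without WU replicate 1, 3 (1 higher, 2 lower) with library totals alone, under which the median of all genes was -0.25, and 3 with the WU and NU cultures alone.

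In TE, 5 members were called in NU-WU, beside 25.3% of all genes (15.1% higher and 10.2% lower). ATG3, ATG23 and ATG32 were higher and ATG18 and ATG19 lower. The TE of ATG3 was 0.688 and 0.711 in WU and 2.35 and 1.33 in NU, that of ATG23 0.255 and 0.275 against 1.11 and 0.523, and that of ATG32 0.193 and 0.288 against 0.425 and 0.468. The groups did not overlap in any of these genes, but ATG3 and ATG23 each had only 16 and 17 RNA counts in NU. TE rose by 1.36 ± 0.30 in ATG3 (adjusted p = 0.00489), by 1.62 ± 0.40 in ATG23 (adjusted p = 0.00966) and by 0.93 ± 0.30 in ATG32 (adjusted p = 0.0371). The TE of ATG18 was 0.725 and 0.672 in WU and 0.452 and 0.335 in NU, a fall of 0.88 ± 0.24 (adjusted p = 0.0162), and that of ATG19 was 0.415 and 0.511 against 0.287 and 0.341, a fall of 0.57 ± 0.18 (adjusted p = 0.0329). ATG18 and ATG19 were thus lower in TE in Δntd cells both without and with urea. The calls of ATG3 and ATG23 were lost without NU replicate 1 (adjusted p = 0.0948 and 0.169), those of ATG18, ATG19 and ATG23 without either WU culture (adjusted p up to 0.122, 0.232 and 0.0903), that of ATG19 also without either WS culture or NU replicate 1 (adjusted p = 0.0586, 0.0588 and 0.0901), and that of ATG32 without any one of the 8 cultures (adjusted p up to 0.373). With library totals alone, under which the median of all genes was -0.55, 0 members were higher and 9 lower, ATG18 (-1.46) and ATG19 (-1.15) among them. The count of 5 became 3 without NU replicate 1, WS replicate 1 or WS replicate 2, 1 without either WU culture and 0 with the WU and NU cultures alone, and was 4 without NU replicate 2.

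The last comparison asked whether the urea response differed between the strains. In RNA, ATG13 was the only member with a difference past the test (-0.54 ± 0.18, Δntd response minus WT response, adjusted p = 0.0462), beside 10.4% of all genes (4.37% higher and 6.07% lower). It did not hold without any one culture or with DESeq2 (adjusted p = 0.315), as set out with the values singled out after this section. At an unadjusted p under 0.05 were 9 of 35 members in RNA, beside 1258 of all 5486 genes. In footprints 0 members were called, beside 8.36% of all genes (4.92% higher and 3.44% lower), and 0 by DESeq2. At an unadjusted p under 0.05 were 5 of 35 members in footprints, beside 1544 of all 5286 genes. In TE 0 were called, beside 0.609% (0.267% higher and 0.343% lower), and 0 by DESeq2. At an unadjusted p under 0.05 were 4 of 35 members in TE, beside 963 of all 5251 genes. Without NU replicate 1, ATG27 (0.86, adjusted p = 0.00188) and ATG34 (1.84, adjusted p = 0.00967) passed in TE, and without NU replicate 2 ATG23 (1.90, adjusted p = 0.0381) and ATG3 (1.48, adjusted p = 0.0444) did, so that no gene passed in both. In footprints, more members passed with 1 NU culture left out and the other assumed to vary like the rest. Among them, ATG32, ATG39 and ATG19 had differences of 1.11, 1.34 and 0.76 without NU replicate 1. Without NU replicate 2 these were 1.08, 1.18 and 0.61. Such fits hold no spread within NU, and the fit over all cultures called none of these genes, so a strain difference is not shown for them. ATG41 had nearly the same response in both strains, with an RNA difference of -0.10 and a footprint difference of -0.03.

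Of 525 tests over the members in all comparisons, 71 passed, in 27 genes. The 8 members without a call were ATG4, ATG5, ATG16, ATG21, ATG27, ATG31, ATG38 and ATG40, which include the Atg8 protease, Atg5 and its partner Atg16, and subunits of the kinase complexes, with lowest adjusted p-values from 0.0631 (ATG27) to 0.498 (ATG16). Apart from ATG13, where 0.18% of 28-base windows occur in other genes, no member shares such a window with another gene, so unique mapping could assign their reads. ATG29 overlaps the end of SET6 on the other strand.

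The neighbours of the pathway moved as follows in the main fit. Their calls were not checked with cultures left out or under the other alternatives. The list of Cvt cargo and vacuolar hydrolases had 8 genes, and RNA of all 8 fell with urea in WT cells (12.4% of all genes were called lower), from a change of -0.34 in PRC1 (carboxypeptidase Y) to -2.52 in CPS1, a vacuolar carboxypeptidase. AMS1 (alpha-mannosidase), the cargo that Atg34 recognises, fell by 2.15 ± 0.12, and APE1 (aminopeptidase I), the cargo of Atg19, by 0.38 ± 0.06. The protease genes PRB1 and PEP4 fell by 1.203 ± 0.07 and 0.37 ± 0.06. In Δntd without urea, RNA of 7 of the 8 was lower than in WT (19.3% of all genes). CPS1 (-1.76) was again the furthest, followed by PRB1 (-1.70). The fall with urea was smaller in Δntd in 5 of the 8, by a test of the difference itself (4.37% of all genes were called in that direction), among them CPS1 (1.05 ± 0.09, adjusted p = 3.13e-10) and PRB1 (1.11 ± 0.11, adjusted p = 1.37e-08). In footprints 3 of 8 fell with urea in WT (4.48% of all genes), AMS1 by 1.96 ± 0.12, CPS1 by 1.97 ± 0.16 and LAP3 by 0.79 ± 0.09.

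Of the regulators of ATG expression, 7 of 10 had higher RNA in Δntd than in WT without urea and none was lower, beside 17.5% of all genes called higher and 19.3% lower, led by MSN4 (1.15 ± 0.11) and MSN2 (0.77 ± 0.14), the stress response factors, and RPH1 (0.58 ± 0.12), a repressor of ATG genes. Library totals alone, as given above, move the median of all genes in this comparison to 0.31. GAT1, a GATA activator, fell in RNA with urea by 1.22 ± 0.12 in WT and by 0.94 ± 0.12 in Δntd. GCN4, the activator of amino acid synthesis genes whose translation is set by upstream reading frames, had its TE raised by urea in WT (1.37 ± 0.15, adjusted p = 0.000886). Its TE was lower in Δntd than in WT without urea (-1.15 ± 0.15) and with urea (-2.53 ± 0.16), and the urea responses of the strains differed by -1.38 ± 0.22 (adjusted p = 0.0286). Footprint changes of ATG41 and GCN4, in comparisons that share libraries, were 0.76 and 1.18 in WU-WS, -0.80 and -0.96 in NS-WS and -0.83 and -1.91 in NU-WU. They parted in NU-NS, where ATG41 rose by 0.73 and GCN4 had a change of 0.23 that did not pass the test. The responses of the strains differed by -0.95 in GCN4 footprints (adjusted p = 0.0355), against -0.03 in ATG41. The part of Gcn4 in the changes of ATG41 was not tested.

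Of the 4 partners of the lipid kinase, VPS34, VPS30 and VPS38 had higher RNA in Δntd without urea (0.56 ± 0.12, 0.73 ± 0.15 and 0.47 ± 0.15, beside 17.5% of all genes), the opposite direction to ATG14 (-1.11), which sits in the same complex as Vps30 and Vps34. In urea, VPS30 (-1.08 ± 0.26) and VPS38 (-0.89 ± 0.27) were lower in TE in Δntd than in WT. Of 12 genes of TORC1 and its upstream regulators, 6 were lower in TE in Δntd than in WT in urea and none was higher, from SCH9 (-0.62 ± 0.22) to IML1 (-0.92 ± 0.22), with TOR1 (-0.74 ± 0.20) and TOR2 (-0.62 ± 0.12) among them, beside the 10.2% of all genes called lower. Of 10 tethers and fusion factors, 2 were higher in TE in that comparison and none was lower, beside 15.1% of all genes called higher. They were YPT1 (0.68 ± 0.12) and VAM7 (1.09 ± 0.27). For TE of NU-WU, library totals alone move the median of all genes to -0.55, as given above.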

How the data were processed

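The authors deposited counts of uniquely mapped reads per gene, without normalization, after linker removal (Cutadapt 1.1), subtraction of non-coding RNA and alignment to the SGD transcriptome with Bowtie. The deposited table also holds 24 columns of their fold changes and false discovery rates, which were not used. Of 6692 genes, 378 have no count in any library. Counts were fitted in R 4.3.3 with edgeR 4.0.16 (quasi-likelihood F test, TMM within each assay, filterByExpr, a mean for each group, Benjamini-Hochberg adjustment over 5486 genes in RNA, 5286 in footprints and 5251 in TE, threshold 0.05). A TE change is the footprint change minus the RNA change in a single fit over 16 libraries. That main fit did not pair the RNA and footprint libraries of a culture. The study used DESeq2, which is an alternative here (1.42.0). Other alternatives were DESeq2's size factors, library totals alone, no filter on low counts, a variance for each group (voom, limma 3.58.1), a replicate block, a fit of only the groups compared, and leaving out each culture in turn. The replicate block was the replicate number in RNA and in footprints. In TE it was a term for each culture, which pairs the RNA and footprint libraries of a shared extract. Without molecular identifiers, precision from counts covers counting error only.

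The members and lists were chosen with earlier results of these data known. Named with values per culture were ATG1, ATG8, ATG9 and ATG13, each member called in TE, and the 3 largest called rises and falls of each RNA and footprint comparison. Other members are given by counts and ranges, except where a count of called genes is spelled out. Coordinates and sequences are from the RefSeq copy of R64. Python 3.11.15, numpy 2.4.6 and pandas 2.3.3 were used.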

Additional observations from a re-analysis of the deposited data

Results flagged for a closer look

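ATG13 RNA responded to urea differently in WT and Δntd cells, by a test made on that difference. The value was -0.537 on the log2 scale, Δntd minus WT, with an adjusted p of 0.0462 in edgeR's quasi-likelihood test. RNA of ATG13 was 52.2 and 57.0 CPM in WS and 56.6 and 59.6 CPM in WU, and 71.2 and 66.5 CPM in NS and 51.4 and 50.3 CPM in NU, so both NS cultures were above all others. The call was lost without each of the 8 cultures (adjusted p 0.0701 to 0.183), with library totals alone (0.0721), with a variance for each group (0.0503) and with DESeq2's Wald test (0.315).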

How the results depend on the processing

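Of 914 alternative values for the 61 called changes of named genes, 682 kept their side of the threshold, 232 lost it and 0 reversed, and 17 of the 61 kept it in every alternative. The cause of the changes below was not tested. With DESeq2's Wald test the called members were 5, 4, 3 and 7 in RNA of WU-WS, NU-NS, NS-WS and NU-WU, 0 for the difference of the urea responses in RNA, and 1, 1 and 3 in TE of NU-NS, NS-WS and NU-WU. With a variance for each group they were 0 for that difference in RNA, 11, 1, 10 and 2 in footprints of WU-WS, NU-NS, NS-WS and NU-WU, and 1, 0, 4 and 2 in TE. With only the groups compared they were 11, 0, 9 and 3 in footprints and 1, 0, 4 and 0 in TE, in the same order. With library totals alone they were 8 in footprints of NU-NS, 3 in footprints of NU-WU, 4 in TE of NS-WS and 9 in TE of NU-WU. In TE of NS-WS, DESeq2's size factors gave 1 and no filter on low counts gave 1.

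With a culture left out, called members ranged from 6 to 13 (RNA WU-WS), 5 to 8 (RNA NU-NS), 3 to 9 (RNA NS-WS), 8 to 13 (RNA NU-WU), 0 to 1 (RNA, difference of the responses), 1 to 11 (footprints WU-WS), 0 to 8 (footprints NU-NS), 0 to 9 (footprints NS-WS), 2 to 10 (footprints NU-WU), 0 to 9 (footprints, difference), 0 to 1 (TE WU-WS), 0 to 3 (TE NU-NS), 0 to 4 (TE NS-WS), 1 to 4 (TE NU-WU) and 0 to 2 (TE, difference). The remaining culture of a group was then assumed to vary like the others. The share of all genes called was not taken in the alternatives.

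The RNA and footprint libraries of a culture are paired by their shared extract. Whether the same replicate number in different groups marks paired cultures is not given. Deviations of RNA and footprints of the same culture correlated at -0.025 to 0.028 (4 pairs), and those of the same number in other groups at -0.278 to 0.046 (12 pairs). These values cannot exclude a pairing, because noise between libraries also lowers such correlations. In TE the replicate block is the fit that pairs RNA and footprints of a culture. With the replicate block 1 member was called in TE of NU-NS (ATG3), 3 in footprints of WU-WS and 4 in footprints and in TE of NU-WU, and the other counts were as without it. The calls lost were ATG22 and ATG23 in TE of NU-NS, ATG39 in footprints of WU-WS (-1.26, adjusted p = 0.0551 in edgeR's test), ATG29 in footprints of NU-WU, and ATG19 (adjusted p = 0.0638) and ATG32 (adjusted p = 0.0804) in TE of NU-WU, where ATG27 was gained. ATG10 had the fewest counts, and changes of it were limited by depth.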
